A study of Mus musculus with 6 samples.

Results

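The genes described here are the 9 receptors for lysophospholipids named Lpar1 to Lpar6 and S1pr1 to S1pr3, and Enpp2, which encodes the secreted enzyme autotaxin. They were taken by gene symbol from a table of 45703 genes, and all 10 were found, each in 1 row. Expression was measured by RNA sequencing in 6 primary cultures of mouse dorsal root ganglia, the clusters of sensory neurons and glia beside the spinal cord. The mice were adult (4 to 6 weeks), of strain C57BL/6 and wild type. Their ganglion cells grew for 7 days on poly-L-lysine in DMEM/F12 medium containing 10% fetal calf serum plus EGF and FGF (10 ng/ml). All samples belonged to 1 group, with no treated or control arm, so levels are compared between genes within a culture and between the 6 replicate cultures. Each culture was sampled as RNA from 2 dishes. The series is described as 6 biological replicates, but which animals went into which culture is not stated, so p-values measure only the spread between these samples.

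Lysophosphatidic acid (LPA) and sphingosine 1-phosphate (S1P) are small signalling lipids that are abundant in serum and act through G protein-coupled receptors on the cell surface. Autotaxin makes LPA outside the cell by cleaving lysophosphatidylcholine. Lpar1, Lpar2 and Lpar3 encode LPA receptors of the Edg family, to which the S1P receptors also belong, whereas the LPA receptors encoded by Lpar4, Lpar5 and Lpar6 are closer to the P2Y nucleotide receptors. In peripheral nerve, LPA signalling through Lpar1 is known for its effects on Schwann cells and its part in pain after nerve injury, and S1P receptors are known for effects on the excitability of sensory neurons.

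Promoter windows are shown for the 3 receptors with the highest levels and for Lpar6, the receptor with the widest spread between cultures among the LPA receptors above 1 CPM (a gene's counts scaled by the library total, in the usual CPM units). Of the 10 genes, 8 had a window in the RefSeq table of GRCm38.p6, from 250 bases before to 50 bases after a transcript start. Where a gene had several starts with a window, the one farthest upstream among them was used. Capitals mark matches on either strand to 7 motifs: the cyclic AMP response element TGACGTCA, the AP-1 site TGANTCA, the GC box GGGCGG, the TATA box TATAAA, the CCAAT box, the E-box CACGTG, and the CArG box bound by serum response factor. A match is a match of letters in this window and no evidence of binding.
S1pr3, chr13:51408368-51408667, plus strand: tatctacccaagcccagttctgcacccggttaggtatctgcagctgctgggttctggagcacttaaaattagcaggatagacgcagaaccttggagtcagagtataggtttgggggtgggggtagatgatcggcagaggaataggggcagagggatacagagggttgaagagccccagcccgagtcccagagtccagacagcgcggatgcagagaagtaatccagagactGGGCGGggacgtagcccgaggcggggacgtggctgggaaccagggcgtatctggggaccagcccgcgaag
Lpar1, chr4:58553442-58553741, minus strand: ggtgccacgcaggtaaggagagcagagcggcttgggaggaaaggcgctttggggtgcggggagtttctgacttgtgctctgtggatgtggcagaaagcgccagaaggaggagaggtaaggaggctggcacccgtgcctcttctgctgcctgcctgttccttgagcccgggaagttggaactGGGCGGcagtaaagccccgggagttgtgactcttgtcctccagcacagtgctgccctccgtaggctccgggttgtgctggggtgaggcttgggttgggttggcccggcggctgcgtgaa
S1pr2, chr9:20976744-20977043, minus strand: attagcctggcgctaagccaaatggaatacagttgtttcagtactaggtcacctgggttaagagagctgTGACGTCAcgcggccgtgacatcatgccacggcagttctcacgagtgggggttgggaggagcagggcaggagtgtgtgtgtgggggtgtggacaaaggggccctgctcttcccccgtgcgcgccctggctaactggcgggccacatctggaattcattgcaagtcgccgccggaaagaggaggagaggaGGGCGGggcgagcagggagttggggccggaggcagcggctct
Lpar6, chr14:73237641-73237940, plus strand: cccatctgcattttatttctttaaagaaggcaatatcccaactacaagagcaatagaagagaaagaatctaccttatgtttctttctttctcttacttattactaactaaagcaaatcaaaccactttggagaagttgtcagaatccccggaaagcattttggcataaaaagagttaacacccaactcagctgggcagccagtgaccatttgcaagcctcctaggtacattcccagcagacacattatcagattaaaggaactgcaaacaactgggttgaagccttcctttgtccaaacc

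The windows of S1pr3, Lpar1 and S1pr2 each held 1 GC box, which 35.7% of 32851 windows of the same length held. That of S1pr2 also held 1 cyclic AMP response element, present in 1.79% of windows. The Lpar6 window held 0 matches to the 7 motifs. Its GC content was 40.0%, against 59.0% for S1pr3, 63.0% for Lpar1, 62.0% for S1pr2 and a median of 52.7% over all windows. It held 1 CG dinucleotide, against 14 for S1pr3, 14 for Lpar1 and 18 for S1pr2. Windows at the starts of Lpar1 farther downstream held 37 and 3 CG dinucleotides, with a GC content of 71.7% and 43.7%. The contrast with Lpar1 thus depends on the start used. The counted span of Lpar1 reaches 58554027, farther upstream than its windows, and no window covered that end.

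The libraries held 20070639 to 22968642 counts. Levels are given as CPM and, where genes are compared with each other, as CPM per kb of combined exon length. The lists of markers of the cell types a ganglion culture can hold were all detected except that of lymphocytes, of whose 4 genes 3 had no more than 3 counts in any culture. All 6 glial lineage genes (among them Sox10 and Cdh19) and all 6 neuron genes (among them Stmn2 and Prph) reached 1 CPM in every culture, and their summed levels were 5427 to 7913 CPM and 864 to 1817 CPM. The cultures differed in their other cells. Culture 1 had the lowest and culture 5 the highest summed level of the fibroblast list (3338 and 13967 CPM, 6 of 6 genes at 1 CPM or more in every culture), the endothelial list (8.14 and 116 CPM, 2 of 6 genes, with Cldn5 at 0 in cultures 2, 3 and 6), the macrophage list (13.0 and 121 CPM, 5 of 6 genes) and the mural list (176 and 1361 CPM, 4 of 4 genes). The glial lineage list ran the other way, highest in culture 1 and lowest in culture 5. The neuron list was also lowest in culture 5 (864 CPM), but it was highest in culture 3 (1817 CPM). These are bulk libraries, in which fewer cells of a type and less RNA per cell cannot be told apart.

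S1pr3 and Lpar1 carried most of the receptor transcripts in the cultures. S1pr3 stood at 108.7 ± 31.1 CPM per kb and Lpar1 at 25.8 ± 4.70 (SD, n = 6 here and for every mean below), while the median of the 13911 genes that reached 1 CPM in all cultures was 8.11. S1pr2 (11.1 ± 1.99 CPM per kb) was the third, and Lpar6, S1pr1 and Lpar4 followed at 4.48 ± 2.12, 2.97 ± 1.62 and 1.19 ± 0.138. Enpp2 lay at 0.457 ± 0.113, and Lpar3, Lpar2 and Lpar5 were the lowest, at 0.245 ± 0.0964, 0.205 ± 0.0804 and 0.0451 ± 0.0381. Of the 10 genes, 7 reached 1 CPM in all 6 cultures, beside 30.4% of all genes in the table and 55.8% of its protein-coding genes. The exceptions were Lpar2, Lpar3 and Lpar5.

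**Figure D1:**
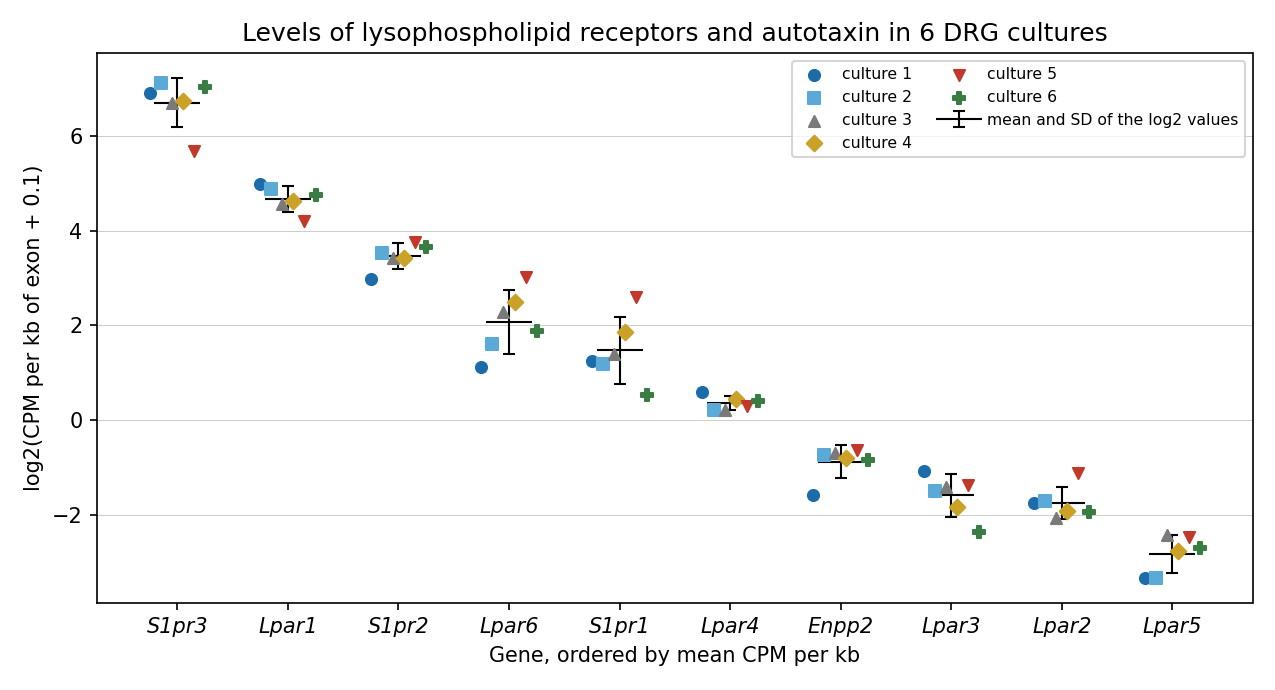
Level of each gene in each culture, as log2 of CPM per kb of combined exon length plus 0.1, with genes ordered by their mean; each point is 1 culture, and bars give the mean and SD over the 6 cultures. S1pr3 lies above every other gene in all cultures, and the points of Lpar3 and Lpar2 overlap.

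Neighbours in the order of mean CPM per kb were compared by the difference in log2(CPM per kb + 0.1) within each culture. An exact permutation test flipped the signs of the 6 differences in all 64 ways (two-sided). P-values were adjusted over the 9 pairs by the Benjamini-Hochberg method. The pairs and their direction were picked from these same values, which the p-values do not account for. They are therefore no independent support for the order. In 6 of the 9 pairs the difference had the same sign in all 6 cultures, which gives p = 0.0312, the smallest possible, and adjusted p = 0.0469 (exact permutation). S1pr3 exceeded Lpar1 by 2.03 ± 0.297, Lpar1 exceeded S1pr2 by 1.21 ± 0.506, and S1pr2 exceeded Lpar6 by 1.40 ± 0.515. S1pr1 exceeded Lpar4 by 1.11 ± 0.737, Lpar4 exceeded Enpp2 by 1.24 ± 0.483, and Lpar2 exceeded Lpar5 by 1.08 ± 0.513. The other 3 pairs were not separated beyond the spread between cultures on this scale. Lpar6 and S1pr1 differed by 0.60 ± 0.498 (higher in 5 of 6 cultures), and Enpp2 and Lpar3 by 0.71 ± 0.666 (5 of 6), each with adjusted p = 0.0703 by the exact sign-flip permutation test. Lpar3 and Lpar2 differed by 0.16 ± 0.451 (4 of 6; exact sign-flip permutation, adjusted p = 0.375). With any 1 culture left out the smallest possible p is 0.0625, so none of the 9 differences can pass then. Without division by length, S1pr1 over Lpar4 was 0.68 (exact sign-flip permutation, adjusted p = 0.105), Enpp2 over Lpar3 was 2.13 (adjusted p = 0.0402), Lpar3 over Lpar2 was -0.85 (adjusted p = 0.0402) and Lpar2 over Lpar5 was 2.16 (adjusted p = 0.0402). With a pseudocount of 1, Lpar4 over Enpp2 fell to 0.59 and Lpar2 over Lpar5 to 0.20 (exact sign-flip permutation, adjusted p = 0.0469 for both), so the size of these differences between low genes depends on the pseudocount.

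The S1P receptors were led by S1pr3 (gene ID 13610, chromosome 13, 51408618 to 51422797), a receptor through which S1P is known to act on the excitability of nociceptors. Its level was 539 CPM in culture 1, 622 in culture 2, 466 in culture 3, 479 in culture 4, 231 in culture 5 and 588 in culture 6. Culture 5 was lowest, and the next culture was 2.02 times as high. With a mean of 488 ± 139.5 CPM, S1pr3 ranked 254th of the 45703 genes by mean CPM. Per kb it was above 96.6% of the genes that reached 1 CPM in all cultures. A long noncoding RNA gene on the other strand, Gm32834, overlaps 10095 bases of its span and was counted at 0.0235 ± 0.0258 CPM.

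S1pr2 (gene ID 14739, chromosome 9, 20965952 to 20976793) encodes a receptor known for coupling to the G proteins of the Gna12 and Gna13 type. It was read at 30.4 CPM in culture 1, 45.1 in culture 2, 41.5 in culture 3, 41.8 in culture 4, 53.2 in culture 5 and 49.2 in culture 6. Culture 1 was the lowest and culture 5 the highest, the reverse of their places for Lpar1. S1pr1 (gene ID 13609, chromosome 3, 115710433 to 115715055), the receptor of endothelium and lymphocytes that governs vessel integrity and lymphocyte exit, was read at 6.92, 6.60, 7.71, 10.7, 18.0 and 4.06 CPM in cultures 1 to 6. Culture 5 was highest and culture 6 lowest, 4.43-fold apart. S1pr3 made up 87.2% ± 7.34 of the summed CPM per kb of the 3 S1P receptors. That share was 72.5% in culture 5 and 88.3% to 92.3% in the other cultures, while S1pr2 made up 19.1% in culture 5 and 5.95% to 9.03% elsewhere.

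Lpar1 (gene ID 14745, chromosome 4, 58435252 to 58554027) was the leading LPA receptor gene. It stood at 185 CPM in culture 1, 172 in culture 2, 136 in culture 3, 144 in culture 4, 107 in culture 5 and 157 in culture 6, with a mean of 150.2 ± 27.4. Culture 1 was 1.72-fold above culture 5, which was again the lowest. Counts of Lpar1 were fractional in 2 cultures, so a few of its reads were shared with other places. The other LPA receptors of the Edg family were read at far lower levels. Lpar2 (gene ID 53978, chromosome 8, 69822565 to 69831102) had 17 to 43 counts, or 0.785 to 2.05 CPM, with culture 5 highest. Lpar3 (gene ID 65086, chromosome 3, 146220961 to 146286214) had 5 to 21.5 counts, or 0.239 to 0.936 CPM, with culture 1 highest and culture 6 lowest. The exact binomial 95% intervals of those 2 extremes, picked after their values were seen, 0.600 to 1.45 CPM and 0.0776 to 0.558 CPM, do not overlap but cover counting error only, and 21.5 counts were rounded for the interval.

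Among the P2Y-related LPA receptors, Lpar6 was the highest and Lpar5 the lowest. Lpar6 (gene ID 67168, chromosome 14, 73237891 to 73240358), a single-exon gene whose human counterpart is mutated in inherited hair loss, was read at 5.14 CPM in culture 1, 7.29 in culture 2, 11.7 in culture 3, 13.6 in culture 4, 19.8 in culture 5 and 8.84 in culture 6. Culture 5 was highest and culture 1 lowest, 3.85-fold apart. Lpar6 lies within intron 17 of Rb1, on the opposite strand, and overlaps 0 Rb1 exons in the GENCODE M21 annotation of GRCm38. Rb1 was counted at 71.3 ± 8.47 CPM, and whether reads were counted by strand is not given in the sources used here, so reads from unspliced Rb1 RNA could be counted for Lpar6 if strand was not used.

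Lpar4 (gene ID 78134, chromosome X, 106920625 to 106933899) had the smallest relative spread of the 10 genes, with a coefficient of variation of 11.6%. Its lowest, median and highest values were 4.46, 4.99 and 5.96 CPM. Lpar5 (gene ID 381810, chromosome 6, 125067844 to 125086129) had 0 counts in cultures 1 and 2, which allows a level of up to 0.131 and 0.137 CPM (0.161 and 0.168 CPM by the exact binomial interval), and 5 to 10 counts in the other 4 cultures, or 0.249 to 0.462 CPM. The exact binomial 95% intervals of cultures 3 and 5 began at 0.221 and 0.197 CPM, above the limits of cultures 1 and 2. Those of cultures 4 and 6 reached down to 0.0809 and 0.105 CPM, so for these the difference from cultures 1 and 2 was not detectable at this depth.

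Within the LPA receptors, Lpar1 made up 80.1% ± 8.56 of the summed CPM per kb and Lpar6 14.6% ± 8.01. Lpar1 had its lowest share, 65.1%, in culture 5 and its highest, 88.6%, in culture 1, and for Lpar6 the same cultures gave the highest (28.3%) and the lowest (5.82%) share. The summed level of the 6 LPA receptors moved less than its make-up, from 28.3 CPM per kb in culture 5 to 35.8 in culture 1. The sum of the 3 S1P receptors was 3.82 ± 0.739 times that of the LPA receptors, from 2.51 in culture 5 to 4.53 in culture 6.

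**Figure D2:**
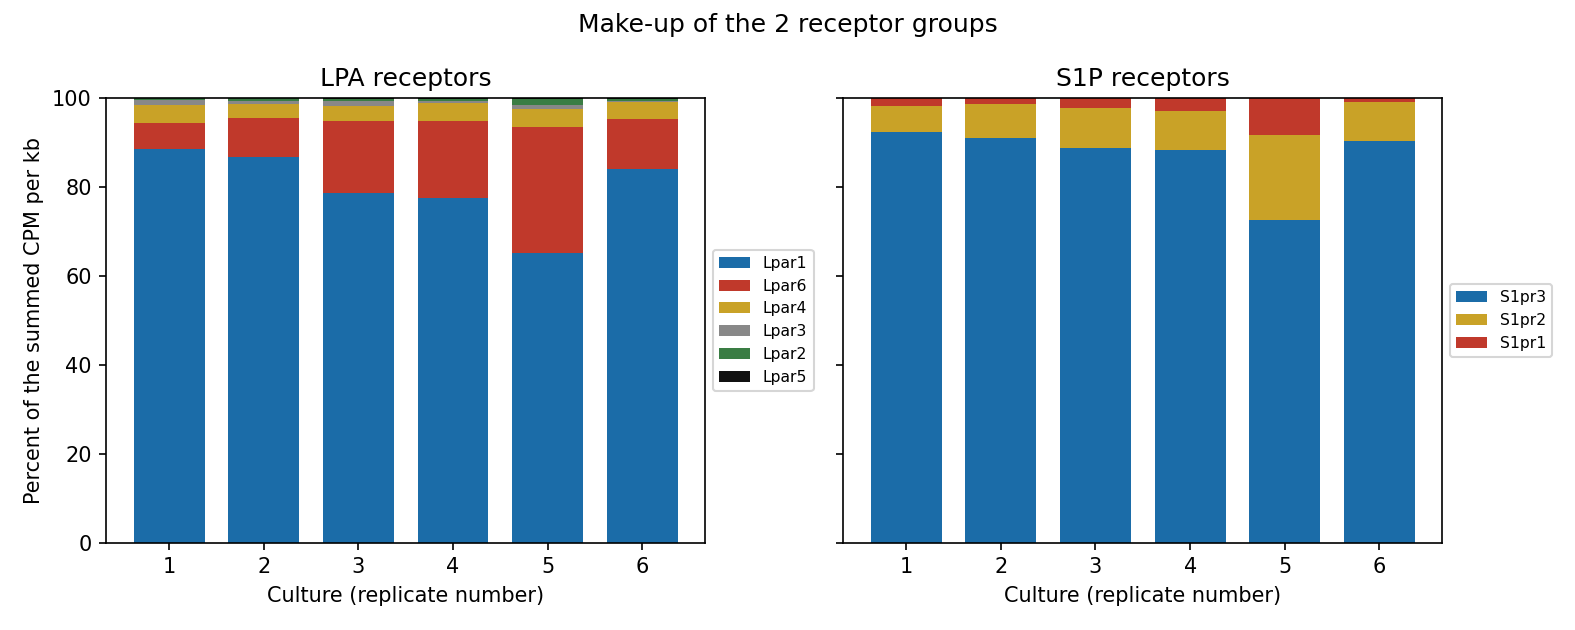
Percent of the summed CPM per kb that each gene takes among the 6 LPA receptors (left) and the 3 S1P receptors (right), 1 bar per culture. Lpar1 and S1pr3 are the largest part of every bar, and culture 5 has the smallest parts of both, 65.1% and 72.5%.

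Enpp2 (gene ID 18606, chromosome 15, 54838901 to 54952789), the gene of autotaxin, was read at 1.52 CPM in culture 1, 3.23 in culture 2, 3.37 in culture 3, 3.04 in culture 4, 3.54 in culture 5 and 2.96 in culture 6. Culture 1 was the lowest, with 35 counts, and the other 5 cultures lay close together, with 61 to 74 counts. The exact binomial 95% interval of culture 1, 1.06 to 2.12 CPM, lay below that of each other culture, the lowest of which began at 2.27 CPM. Per kb, Enpp2 was above 2.36% of the genes that reached 1 CPM in all cultures.

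Spread between the cultures beyond counting noise was tested per gene by chi-square, with expected counts taken from the scaled library sizes and p-values adjusted by the Benjamini-Hochberg method over 14998 genes. Of the 8 genes that passed the filter on low counts, 7 were called at an adjusted p under 0.05, where 76.3% of all tested genes were called, so the share is near that of the table. Lpar3 and Lpar5 did not pass the filter. With no filter on low counts, 50.2% of 26854 genes were called, Lpar5 among them (adjusted p = 0.00642) and Lpar3 not (adjusted p = 0.105). Lpar4 was not called (adjusted p = 0.178). The call on Lpar2 (adjusted p = 0.00337) ended without culture 5 (adjusted p = 0.635), and that on Enpp2 (adjusted p = 0.0024) ended without culture 1 (adjusted p = 0.893). S1pr3, Lpar1, S1pr1, Lpar6 and S1pr2 were called with any 1 culture left out. In those runs 66.9% to 74.8% of all tested genes were called.

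The size of the spread is given by edgeR's biological coefficient of variation, an estimate of the relative SD between cultures beyond counting noise. Each gene's estimate is drawn toward the trend of genes of similar abundance, so it can exceed the spread seen in the counts. For Lpar4 it was 0.171, though the plain coefficient of variation, with counting noise still in it, was 11.6%. The estimate was 0.428 for S1pr1, 0.396 for Lpar6 and 0.294 for S1pr3, where the trend fitted at their abundance was 0.260, 0.248 and 0.171. The median estimate over all tested genes, of any abundance, was 0.153, under the trend value of every member tested. A value near or below the trend is therefore not a small spread among genes. Without culture 5, the value for S1pr3 was 0.140, where the trend was then 0.138. Lpar1 (0.186 against 0.155), S1pr2 (0.181 against 0.174) and Lpar2 (0.293 against 0.279) lay close to the trend, the last at 0.171 against 0.244 without culture 5. Lpar4 (0.171 against 0.284) and Enpp2 (0.262 against 0.292) lay below it, and Enpp2 had 0.163 against 0.291 without culture 1. Ranked among all tested genes, the estimates of S1pr1, Lpar6, S1pr3, Lpar2 and Enpp2 lay at percentiles 95.9, 95.2, 89.3, 89.1 and 85.3. Those of Lpar1, S1pr2 and Lpar4 lay at percentiles 67.7, 65.3 and 60.5. No p-value was computed for these values.

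**Figure D3:**
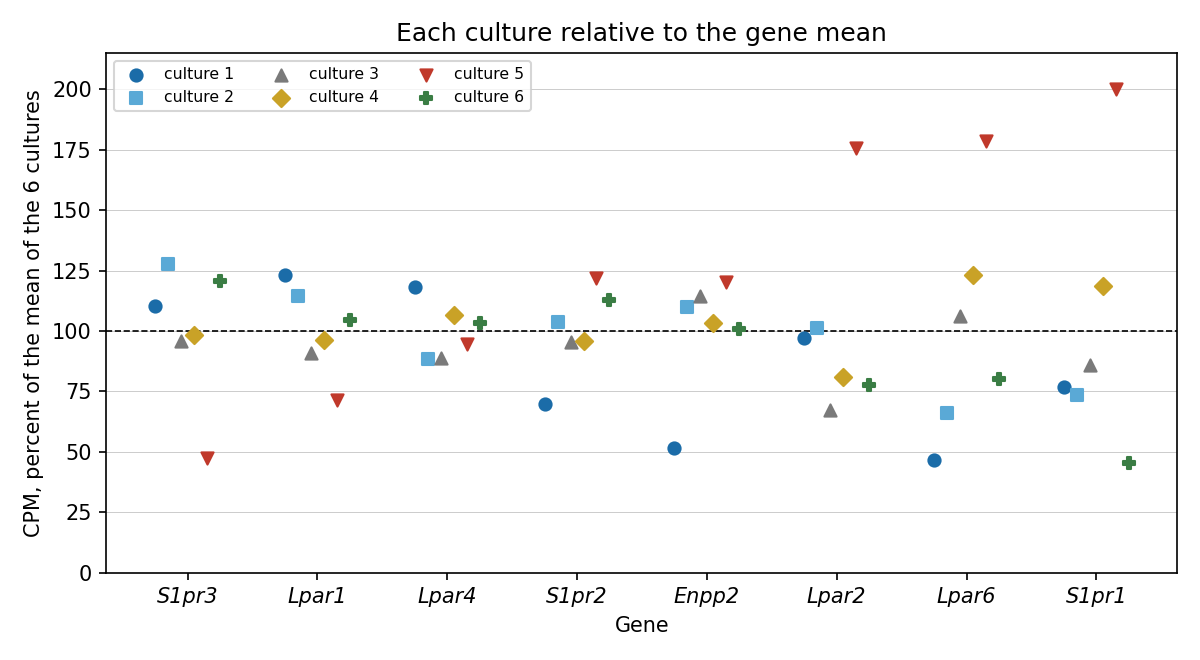
CPM of the 8 genes with a mean of at least 1 CPM, as percent of the gene's mean over the 6 cultures (dashed line at 100); each point is 1 culture. Culture 5 is lowest for S1pr3 (47.3%) and Lpar1 (71.5%) and highest for S1pr2, Enpp2, Lpar2, Lpar6 (179%) and S1pr1 (200.2%).

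The place of culture 5 was opposed among the members, while the order of the other cultures differed from gene to gene. Culture 5 was the highest for S1pr1, S1pr2, Lpar2, Lpar6 and Enpp2 and the lowest for S1pr3 and Lpar1. For Enpp2 it was barely above culture 3 (3.54 and 3.37 CPM). The share of all genes with culture 5 at an extreme was not computed, so this place is not particular to these genes. Culture 5 also held the highest summed levels of fibroblast, endothelial, macrophage and mural markers and the lowest of glial lineage and neuron markers. A relation over the same cultures in part restates this and is no independent support. The 8 genes with a mean of at least 1 CPM were set against the scores of 4 lists (the mean log2(CPM + 0.5) of their genes), which makes 32 relations over 6 cultures. The mural and neuron lists were not among the 4, and the mural score also ran from 4.48 in culture 1 to 7.70 in culture 5. The neuron score was 7.41, 6.77, 7.72, 7.19, 6.67 and 7.32 in cultures 1 to 6. Its relation to S1pr3 and the other genes was not tested. No batch of culture or sequencing is given in the labels, so values within batches cannot be had.

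Of the 32 relations, 10 had an exact permutation p under 0.05 for Pearson's r, and 2 passed after adjustment, both of Lpar6. Lpar6 followed the macrophage score with r = 0.95 (exact permutation p = 0.00278, adjusted p = 0.0444), and the 6 cultures stood in the same order by both, with Spearman's rho = 1.0 (exact permutation p = 0.00278, adjusted p = 0.0889). Without cultures 1 and 2, the farthest from the median score, r was 0.85. With the endothelial score Lpar6 gave r = 0.89 (exact permutation p = 0.00278, adjusted p = 0.0444) and rho = 0.94 (exact permutation p = 0.0167, adjusted p = 0.107), and r = 0.84 without cultures 1 and 5. Of the 32 values of rho, 6 had an unadjusted p under 0.05 (exact permutation) and 0 passed the adjustment. With any 1 culture left out, 4 to 11 of the 32 values of r had an unadjusted p under 0.05 (exact permutation) and 0 passed the adjustment. With 5 cultures the smallest p is 0.00833, which at least 6 of the 32 relations would have to reach for any to pass, so this loss says little about stability. The r of Lpar6 was then 0.88 to 0.94 with the endothelial score and 0.92 to 0.98 with the macrophage score. Lpar6 gave r = 0.95 with the fibroblast score and r = -0.91 with the glial lineage score (exact permutation p = 0.00972 and 0.0125, adjusted p = 0.0667 for both), with rho = 0.94 and -0.94 (exact permutation p = 0.0167, adjusted p = 0.107) and r = 0.75 and -0.75 without cultures 1 and 5, so Lpar6 moved with several lists that themselves move together.

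Lpar1 and S1pr3 ran with the glial lineage score and against the other 3 lists, without passing the adjustment. Lpar1 gave r = 0.92 with the glial lineage score (exact permutation p = 0.0125, adjusted p = 0.0667; rho = 0.83, exact permutation p = 0.0583, adjusted p = 0.207) and r = 0.62 without cultures 1 and 5. S1pr3 gave r = 0.88 (exact permutation p = 0.0333, adjusted p = 0.119; rho = 0.60, exact permutation p = 0.242, adjusted p = 0.387) and r = 0.57 without those cultures. With the macrophage, endothelial and fibroblast scores Lpar1 gave r = -0.91, -0.90 and -0.86 (exact permutation, adjusted p = 0.0698, 0.0667 and 0.119). S1pr3 gave r = -0.70, -0.93 and -0.77 with them (exact permutation, adjusted p = 0.162, 0.138 and 0.166). The glial lineage relation of these genes thus cannot be told apart from the inverse ones. S1pr1 gave r = 0.83 with the endothelial score (exact permutation p = 0.05, adjusted p = 0.145; rho = 0.60, exact permutation p = 0.242, adjusted p = 0.387) and r = 0.57 without cultures 1 and 5. With the fibroblast score S1pr1 gave r = 0.78 and rho = 0.83 (exact permutation, adjusted p = 0.162 and 0.207), and r = 0.86 without cultures 1 and 5. With the macrophage score it gave r = 0.66 and rho = 0.77 (exact permutation, adjusted p = 0.227 and 0.274), and r = 0.91 without cultures 1 and 2. The part of these cell types in the levels of the receptors was not tested.

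**Figure D4:**
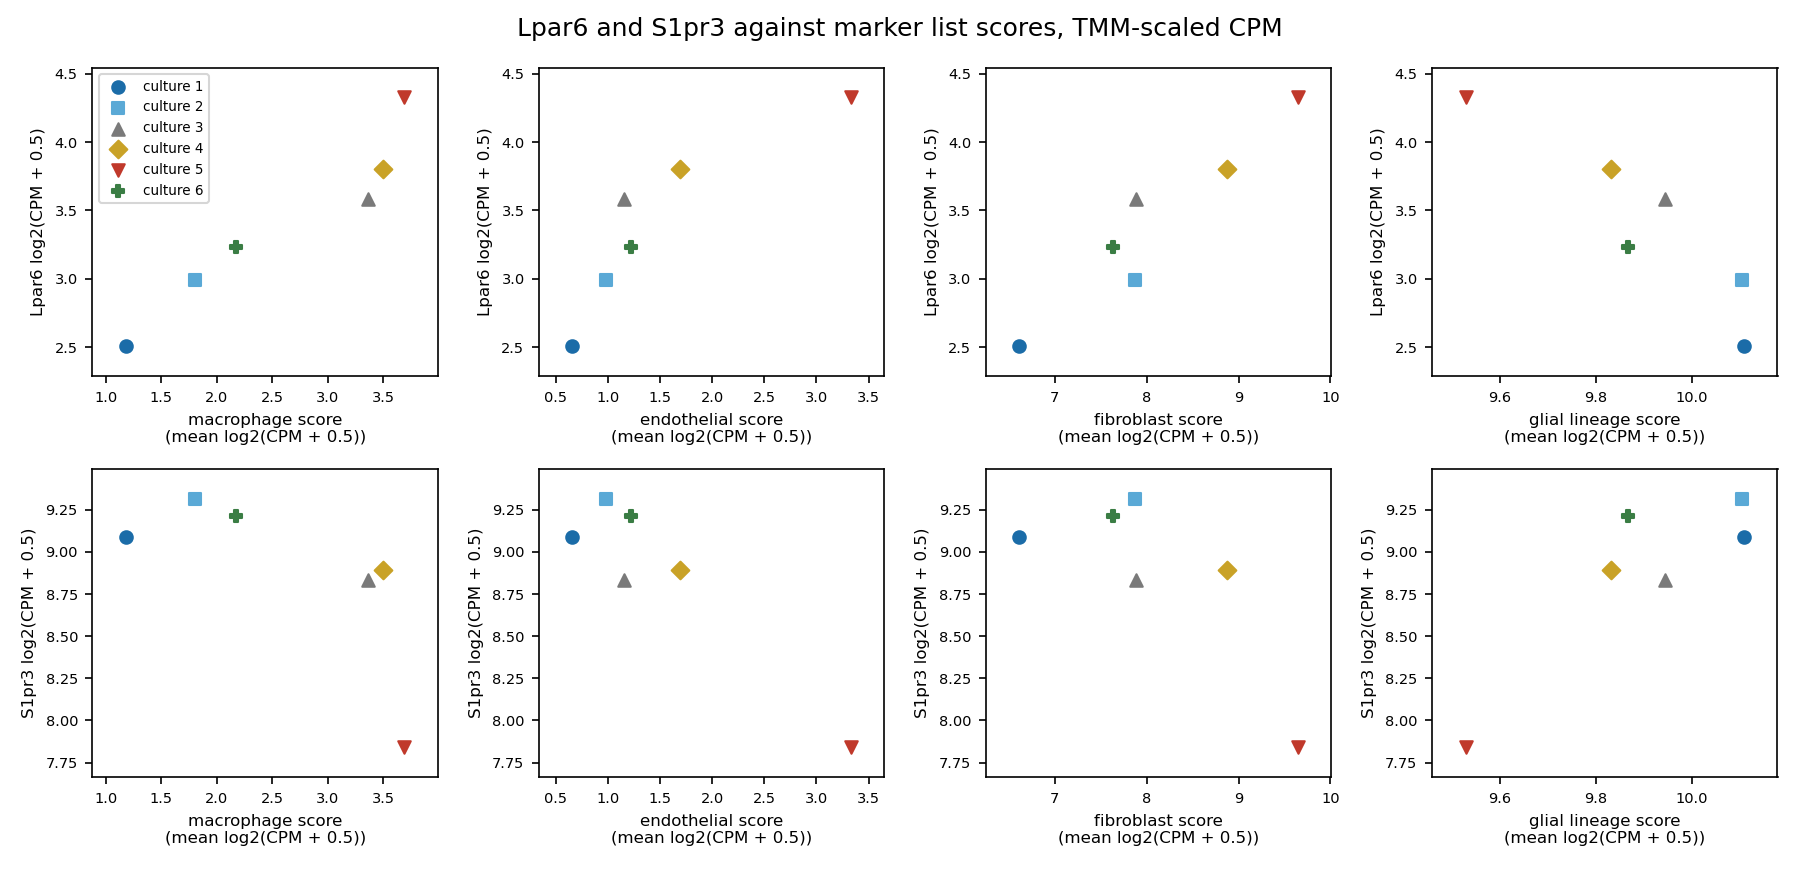
Lpar6 (top) and S1pr3 (bottom), as log2(CPM + 0.5) with TMM-scaled CPM, against the scores of the macrophage, endothelial, fibroblast and glial lineage lists; each point is 1 culture. Lpar6 rises with the first 3 scores, with r = 0.95 for macrophage markers, and culture 5 is the lowest for S1pr3.

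For the members whose log2(CPM + 0.5) had an SD of at least 0.5 between cultures, the genes of most similar pattern were sought among 11943 genes with a mean of at least 5 CPM, by the root mean square difference of their centred log2 values over the 6 cultures. For Lpar6 they included Dglucy (0.0863) and Mmd (0.120), where the median gene lay 0.605 away. For S1pr3 they were Rab3b, of a vesicle GTPase (0.0747), Lgr5, of an R-spondin receptor (0.0987), and Naaa, of an enzyme that breaks down N-acylethanolamines (0.104), with a median of 0.497 over all genes. Rab3b was read at 36.8 CPM in culture 2 and 13.9 CPM in culture 5. For S1pr1 they were Dusp5, of a phosphatase that inactivates ERK (0.149), Lgi2 (0.188) and Gcnt4 (0.189), with a median of 0.633. Likeness over 6 libraries of 1 group is a description only.

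Of 35 other genes of the pathway found in the table, 24 reached 1 CPM in all cultures, beside 30.4% of all genes and 55.8% of protein-coding genes, and 22 of 24 tested were called for spread beyond counting noise, beside 76.3% of tested genes. Among the 8 genes of S1P production, breakdown and transport, 6 reached 1 CPM. The kinases Sphk1 and Sphk2, which make S1P, stood at 51.2 ± 4.02 and 32.6 ± 2.48 CPM, and the lyase Sgpl1, which ends it, at 245 ± 41.8 CPM. The phosphatase gene Sgpp1 (36.3 ± 1.12 CPM) was not called (adjusted p = 0.465). The exporter gene Spns2 was read at 1.20 to 3.54 CPM, and Apom, of an S1P carrier in plasma, had at most 3 counts in every culture.

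Among 7 genes of LPA production and breakdown, 5 reached 1 CPM, beside 55.8% of protein-coding genes. The highest were the lipid phosphatases Plpp3 (298 ± 46.3 CPM), Plpp1 (78.7 ± 9.98 CPM) and Plpp2 (29.1 ± 10.2 CPM), which degrade LPA and S1P at the cell surface. Per kb, Plpp3 stood at 94.2 ± 14.7 and Enpp2 at 0.457 ± 0.113. Plpp2 was highest in culture 2 (40.7 CPM) and lowest in culture 5 (16.1 CPM). Pla1a, of a phospholipase, ran from 1.00 CPM in culture 1 to 6.93 CPM in culture 5. Agk (14.4 ± 1.19 CPM), of a mitochondrial lipid kinase, was not called (adjusted p = 0.212), and its counts were fractional in 5 cultures.

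Most of the remaining receptors were at or near the limit of detection. Among other receptors for lysophospholipids or proposed for them, S1pr4, S1pr5, Gpr174 and P2ry10 had at most 3 counts in every culture, and Gpr34 reached at most 0.448 CPM. Gpr35 reached 1 CPM throughout (2.85 ± 1.23 CPM), but it stood at only 0.192 ± 0.0832 CPM per kb, with fractional counts in 4 cultures. All 8 genes listed for the G proteins Gna12 and Gna13 and the steps after them reached 1 CPM, beside 55.8% of protein-coding genes. Among them were Gna12 (74.5 ± 4.25 CPM), Gna13 (149 ± 8.04 CPM), Rhoa (496 ± 16.7 CPM) and the exchange factor gene Arhgef12 (487 ± 75.7 CPM). Counts of Rhoa and Arhgef12 were fractional in all 6 cultures, so their levels are less certain.

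Of the 5 serum-responsive genes, 4 reached 1 CPM, beside 55.8% of protein-coding genes. All 4 were called, beside 76.3% of tested genes. Ccn2, of a matricellular protein, was read at 29.1 CPM in culture 1, 84.0 in culture 2, 264 in culture 3, 310 in culture 4, 464 in culture 5 and 214 in culture 6. Ccn1, its relative, was lowest in culture 1 (49.9 CPM) and highest in culture 5 (349 CPM). The transcription factor genes Srf and Mrtfa also had their lowest values in culture 1 (31.1 and 30.9 CPM) and their highest in culture 5 (44.2 and 46.0 CPM). Culture 5 was the culture with the most fibroblast, mural, endothelial and macrophage markers, and their part in these levels was not tested.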

How the data were processed

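The deposited table held estimated counts per gene for each of the 6 cultures, made by the authors with no scaling. The submitters' processing notes name bcl2fastq 2.20.0.422, cutadapt 2.5, STAR 2.7.2b, featureCounts 1.6.4, Subread and the build GRCm38.p6, without roles or settings. Between 13.4% and 14.7% of values per library were not whole, so some reads were divided between genes. The deposited column of combined exon length gave another value, in bases. Per the labels' protocols, stranded poly-A libraries were made.

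CPM and CPM per kb used the values as deposited. In R 4.3.3, edgeR 4.0.16 (filterByExpr, TMM scaling) and, as an alternative, DESeq2 1.42.0 were run on counts rounded to whole numbers. The chi-square test, the sign-flip test and the search for similar genes were tested on simulated data. Intervals are exact binomial and cover counting error only. A zero allows up to 3 counts. Named genes were the members, the pathway and marker genes, overlapping genes, and the 3 genes nearest in pattern, of which a few are not reported here. Members and lists were chosen with earlier results of these data known. Alternatives were other scalings, pseudocounts and filters, and leaving out cultures. The removal of cultures 1 and 5 together was chosen after seeing the data.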

Additional observations from a re-analysis of the deposited data

Results flagged for a closer look

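Across 17 measures (the 10 genes and 7 marker list scores), the distance of the most extreme culture from the nearest other one was taken as a share of the range over 6 cultures. This ratio was above Dixon's 95% critical value for 2 measures, and chance flags about 1 in 20, or 0.85 here. A culture far from the others was found for 2 genes. Lpar2 in culture 5 was at 2.05 CPM (43 counts), with the next culture at 1.18 CPM and a ratio of 0.686. Enpp2 in culture 1 was at 1.52 CPM (35 counts), with the next culture at 2.96 CPM and a ratio of 0.716.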

How the results depend on the processing

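No paired analysis was possible because all cultures belonged to 1 group, so no other group shares their numbers (the differences between genes were taken within each culture). Leaving out 1 culture gave differences of 1.98 to 2.14 for S1pr3 over Lpar1, 1.05 to 1.36 for Lpar1 over S1pr2, 1.29 to 1.53 for S1pr2 over Lpar6, 0.87 to 1.31 for S1pr1 over Lpar4, 1.05 to 1.31 for Lpar4 over Enpp2 and 0.97 to 1.23 for Lpar2 over Lpar5 (log2). All were positive, and with 5 cultures the test cannot pass. Without division by length, S1pr1 over Lpar4 was 0.68 (exact permutation, adjusted p = 0.105), Enpp2 over Lpar3 was 2.13 and passed (adjusted p = 0.0402), and Lpar3 over Lpar2 reversed to -0.85 (adjusted p = 0.0402), because the genes differ in exon length. A pseudocount of 1 and TMM scaling ended none of the 6 calls, but the pseudocount lowered Lpar4 over Enpp2 from 1.24 to 0.59 and Lpar2 over Lpar5 from 1.08 to 0.20. The 2 relations that passed became 0 of 32 (lowest to highest 0 to 0) with any 1 culture left out, where 120 pairings remain, a pass is nearly beyond reach and 4 to 11 of 32 had an unadjusted p under 0.05, and stayed 2 with library totals or a pseudocount of 5. Without cultures 1 and 5 together, 5 of 8 tested genes varied beyond counting noise, beside 56.5% of all tested genes. Genes under about 1 CPM, Lpar3 and Lpar5 among them, are limited by depth.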
